A study of Mus musculus with 28 samples.

Results

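A set of 9 genes that restrain cell division was followed while mouse Pre-B cells were converted into macrophages. They are the antiproliferative genes Btg1, Btg2, Tob1 and Tob2, the cyclin-dependent kinase (CDK) inhibitor genes Cdkn1a, Cdkn1b, Cdkn2c and Cdkn2d, and the atypical cyclin gene Ccng2. They were taken by symbol from the gene expression table, in which all 9 were found among 55450 gene rows, and all 9 passed the filter on low values that left 16256 genes to test. The cells were C10, one HAFTL-derived mouse Pre-B line that carries in every sample a transgene of C/EBPα fused to the hormone-binding part of the estrogen receptor (CEBPalpha-ER), so that β-estradiol switches on this myeloid transcription factor. The RNA-seq groups were uninduced cells (0h) and cells 1h, 12h and 48h after 100 nM β-estradiol was added together with IL-3 and CSF-1, with 3 libraries labelled as biological replicates at each of the 4 time points. No induced control without the transgene was among the groups, so that estradiol, the cytokines and C/EBPα cannot be told apart, and all values come from 1 line. Promoter Capture Hi-C (PCHi-C), which lists the restriction fragments that touch captured promoter fragments, gave 1 merged list at each time point.

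BTG and TOB proteins are small adaptors that bind the CCR4-NOT deadenylase, shorten poly(A) tails and slow proliferation. The CDK inhibitors act on the kinases of the G1 phase. The Cip/Kip proteins p21 (Cdkn1a) and p27 (Cdkn1b) bind cyclin-CDK complexes, while the Ink4 proteins p18 (Cdkn2c) and p19 (Cdkn2d) bind CDK4 and CDK6 and keep the retinoblastoma protein active. Ccng2 encodes cyclin G2, an unconventional cyclin that is higher in arrested cells than in dividing ones. In blood cells p18 is best known from B cell and plasma cell development and p21 and Btg genes from growth arrest during myeloid differentiation.

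The cells carried the marker genes that the labels lead one to look for. The summed level of 10 Pre-B marker genes was 321 to 345 scaled TPM at 0h and 50.2 to 57.8 at 48h, with 9 of 10 lower, while that of 9 macrophage marker genes was 12.4 to 14.9 at 0h and 941 to 984 at 48h, with all 9 higher. Of 7 granulocyte markers only S100a8 and Camp could be tested, and both were higher at 12h and 48h, but the list summed to at most 10.1 in any library, with Mpo and S100a9 at 0 throughout. The part of these markers in the members' changes was not tested. The T cell markers summed to at most 0.349, with Cd3e, Cd3g and Cd4 at 0. In these bulk samples fewer cells of a type and less RNA per cell cannot be told apart. A single ribosomal RNA locus held 70.3% to 82.9% of all TPM (transcripts scaled to a fixed total per library). Its mean share was 78.7%, 72.7%, 76.8% and 80.4% at 0h, 1h, 12h and 48h. Levels are given here as scaled TPM, that is TPM divided by a size factor for each library (0.597 to 1.55). The mean size factors were 0.964, 1.46, 1.17 and 0.666 in the same order, and the part of this locus in them was not tested. With this scaling fold changes are relative to the typical gene, on the log2(scaled TPM + 0.1) scale, where the added 0.1 understates the changes of low genes. A gene was called where limma gave a Benjamini-Hochberg adjusted p under 0.05 over all genes tested. TPM keep no read depth, so counting error cannot be given.

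The promoter stretches of 4 members are shown first, those with the largest changes at 48h, with the bases just upstream of the RefSeq transcription start on the gene's own strand (GRCm38.p6, the build of the files). Each runs 250 bases, 5′ to 3′. Capitals mark matches to GTAAACA (forkhead, FOXO), CCAAT and TATAAA on either strand.
Btg1, chr10:96616751-96617000, plus strand: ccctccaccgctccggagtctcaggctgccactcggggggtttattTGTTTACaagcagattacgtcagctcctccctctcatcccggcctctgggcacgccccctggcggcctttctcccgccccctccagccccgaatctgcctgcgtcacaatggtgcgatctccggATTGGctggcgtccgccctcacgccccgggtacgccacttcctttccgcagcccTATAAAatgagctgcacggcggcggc
Btg2, chr1:134079156-134079405, minus strand: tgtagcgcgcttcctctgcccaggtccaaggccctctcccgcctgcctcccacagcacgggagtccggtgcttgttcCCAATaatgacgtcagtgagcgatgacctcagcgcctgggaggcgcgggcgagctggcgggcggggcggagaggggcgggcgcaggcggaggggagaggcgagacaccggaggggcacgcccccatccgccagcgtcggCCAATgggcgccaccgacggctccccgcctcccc
Cdkn1a, upstream start, chr17:29090729-29090978, plus strand: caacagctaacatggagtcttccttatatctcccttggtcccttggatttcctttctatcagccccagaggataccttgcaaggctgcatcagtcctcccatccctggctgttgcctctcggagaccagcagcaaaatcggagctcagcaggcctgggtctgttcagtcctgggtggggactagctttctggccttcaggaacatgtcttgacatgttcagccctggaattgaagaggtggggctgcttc
Cdkn1a, downstream start, chr17:29093519-29093768, plus strand: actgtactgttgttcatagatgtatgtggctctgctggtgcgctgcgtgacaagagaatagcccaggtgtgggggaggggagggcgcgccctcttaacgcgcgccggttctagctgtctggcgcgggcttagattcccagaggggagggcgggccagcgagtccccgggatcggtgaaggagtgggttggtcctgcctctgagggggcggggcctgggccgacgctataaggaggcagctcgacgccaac
Cdkn2c, chr4:109666757-109667006, minus strand: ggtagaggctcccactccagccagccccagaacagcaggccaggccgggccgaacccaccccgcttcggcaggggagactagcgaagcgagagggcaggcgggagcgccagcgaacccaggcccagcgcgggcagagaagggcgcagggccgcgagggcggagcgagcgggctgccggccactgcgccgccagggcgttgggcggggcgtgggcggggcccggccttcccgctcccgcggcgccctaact
The Btg1 stretch holds the forkhead letters at bases -204 to -198, CCAAT at -80 to -76 and TATAAA at -26 to -21, counted from the start. Forkhead letters occur in 3.17% of the 32851 RefSeq promoters searched over the same 250 bases, CCAAT in 33.8% and TATAAA in 12.4%. Of the 11 promoter stretches that matched the 9 members, 1 holds the forkhead letters, 5 hold CCAAT, 2 hold TATAAA (Btg1 and Tob1) and 9 hold GGGCGG, the GC box, which occurs in 32.7% of promoters and was left in lower case. None of the 11 holds the C/EBP letters TTGCNNAA (9.56% of promoters), the E2F letters TTTNGCGC (1.13%) or the cell cycle homology letters TTTGAA (16.0%). The E-box CACGTG (6.02%) and the PU.1 letters GAGGAAGT (2.44%) were absent too. The complete p53 site, searched with no mismatch or spacer allowed, was also absent, but occurs in only 3 of 32851 promoters (0.00913%). Its absence therefore cannot tell whether the 11 stretches lack p53 sites. The upstream Cdkn1a stretch shown holds a run that departs from this site at 1 base. The Btg2 stretch and the Cdkn2c stretch shown are rich in G and C (73.2% and 77.2%, against a median of 52.4% over all promoters). The upstream Cdkn1a stretch has 54.0% and only 2 CpG. A second RefSeq stretch of Cdkn2c, not shown (chr4:109665373-109665622), has 42.8% and 6 CpG. Its start coincides with an annotated transcript start, whereas that of the Cdkn2c stretch shown lies 433 bases from the nearest.

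The 9 genes together had a summed level of 15.7 ± 1.82 scaled TPM (SD, n = 3) at 0h and of 18.4 ± 1.59, 40.6 ± 1.00 and 103 ± 7.78 after 1h, 12h and 48h, with no overlap between 1h, 12h and 48h. Much of this sum came from a pair of genes. Btg1 held 16.7% ± 1.99 of it at 0h and 37.5% ± 3.98 at 48h, and Cdkn1a 10.4% ± 5.43 and 33.9% ± 5.82. Cdkn2c went the other way, from 10.9% ± 0.972 of the sum to 0.409% or less in each 48h library.

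**Figure D1:**
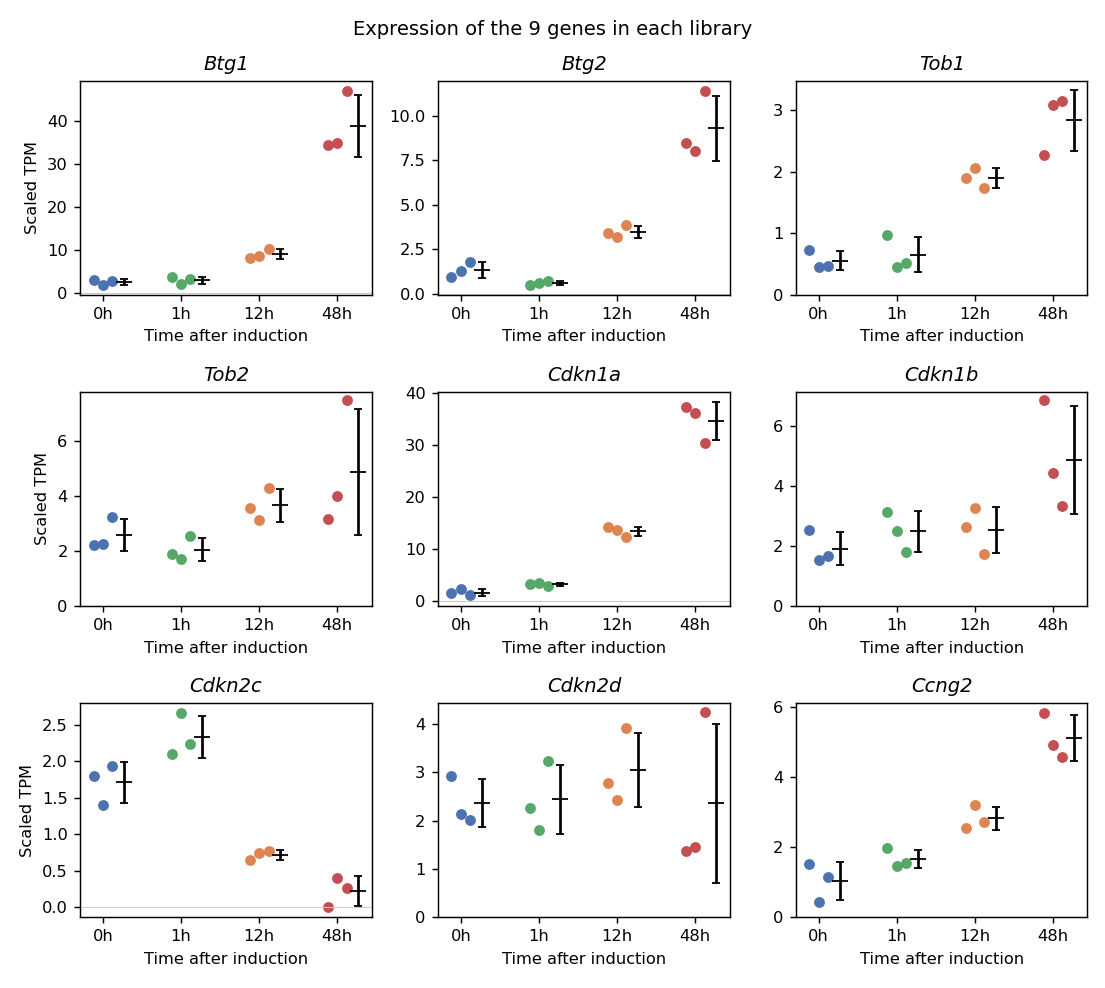
Scaled TPM (y axis, linear) of each gene in each of the 12 libraries (points) at 0h, 1h, 12h and 48h (x axis), with the mean and SD of 3 libraries in black beside them. Btg1 reaches 34.4 to 47.0 and Cdkn1a 30.5 to 37.4 at 48h, Cdkn2c falls to 0.399 or less, and Tob2 and Cdkn2d each have 1 high library at 48h.

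Among the BTG and TOB genes, Btg1 (ENSMUSG00000036478, chr10:96617006-96622809, plus strand), the most widely expressed member of its family, showed the largest change. It measured 3.14, 1.98 and 2.80 scaled TPM at 0h, 3.77, 2.08 and 3.25 at 1h, 8.12, 8.76 and 10.3 at 12h and 34.4, 34.95 and 47.0 at 48h. The 0h and 1h libraries overlapped, and every 12h library lay above them and below every 48h library. The log2 change from 0h was 0.18 ± 0.24 (SE) at 1h (adjusted p = 0.715), 1.76 ± 0.24 at 12h (adjusted p = 0.000255) and 3.84 ± 0.24 at 48h (adjusted p = 2.38e-07), which at 48h is 14.3-fold. Btg1 has a pair of annotated pseudogenes, Btg1-ps1 and Btg1-ps2, both at 0 in all libraries.

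Btg2 (ENSMUSG00000020423, chr1:134075170-134079120, minus strand), a p53-responsive immediate early gene, dipped before it rose. Its levels were 0.924, 1.25 and 1.79 at 0h, 0.492, 0.620 and 0.689 at 1h, 3.41, 3.18 and 3.86 at 12h and 8.46, 8.01 and 11.4 at 48h. No 2 time points overlapped. The log2 change from 0h was -0.99 ± 0.24 at 1h (adjusted p = 0.0237), 1.37 ± 0.24 at 12h (adjusted p = 0.00127) and 2.75 ± 0.24 at 48h (adjusted p = 2.95e-06), and from 1h to 12h the gene rose by 2.36 ± 0.24 (5.14-fold, adjusted p = 4.48e-05). The fall at 1h is the less certain part of this course. It passed under 14 of 21 alternative settings. On TPM as deposited it was -0.46 (adjusted p = 0.207), with a pseudocount of 1 it was -0.52 (adjusted p = 0.0737), and the call was also lost with only the 6 libraries compared (adjusted p = 0.0776) and without 0h replicate 2 (adjusted p = 0.0636), 0h replicate 3 (0.0793), 1h replicate 1 (0.0923) or 1h replicate 2 (0.0657).

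Tob1 (ENSMUSG00000037573, chr11:94211454-94215495, plus strand), a transducer of ERBB2 signalling with an antiproliferative BTG domain, was the lowest of the 9 at 0h. It measured 0.726, 0.449 and 0.469 at 0h, 0.971, 0.448 and 0.515 at 1h, 1.89, 2.06 and 1.73 at 12h and 2.26, 3.09 and 3.14 at 48h. The early time points overlapped and the late ones lay above them without overlap. The log2 change from 0h was 1.64 ± 0.28 at 12h (adjusted p = 0.00116) and 2.19 ± 0.28 at 48h (adjusted p = 6.70e-05), while the step from 12h to 48h did not pass (0.54 ± 0.28, adjusted p = 0.200).

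Its relative Tob2 (ENSMUSG00000048546, chr15:81848272-81858796, minus strand), also an antiproliferative adaptor, gave a less certain result. The levels were 2.22, 2.25 and 3.24 at 0h, 1.90, 1.71 and 2.53 at 1h, 3.58, 3.11 and 4.29 at 12h and 3.17, 3.99 and 7.50 at 48h. The 48h libraries reached into the range of the 0h ones, and replicate 3 was the highest at every time point. The replicate 3 libraries also had the lowest share of TPM in the ribosomal RNA locus (70.3% to 76.9%) and the most genes above 0 at each time point, and the part of this in the Tob2 values was not tested. The 48h difference passed narrowly at 0.83 ± 0.30 (1.77-fold, adjusted p = 0.0399) and passed under 11 of 21 alternative settings (adjusted p 0.00550 to 0.498). It was 0.47 without 48h replicate 3 (adjusted p = 0.133) and 0.31 on TPM as deposited (adjusted p = 0.498), and was also lost without 0h replicate 1 (0.111), 0h replicate 2 (0.111), 1h replicate 1 (0.0524), 12h replicate 1 (0.0531) or 48h replicate 2 (0.0519). The antisense gene Gm49476 overlaps Tob2 exons, was at 0.470 TPM in 1 of the 0h libraries and at 0 in the other 11. Within each library the ratio of Tob2 to Tob1 was 4.99 ± 1.92 (SD, n = 3) at 0h and 1.69 ± 0.603 at 48h, and the 2 groups did not overlap (3.06 to 6.90 and 1.29 to 2.39).

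Of the Cip/Kip genes, Cdkn1a (ENSMUSG00000023067, chr17:29090976-29100727, plus strand), which encodes p21, rose earliest and most. It measured 1.42, 2.27 and 1.03 at 0h, 3.16, 3.39 and 2.95 at 1h, 14.2, 13.6 and 12.4 at 12h and 37.4, 36.2 and 30.5 at 48h. Each time point lay above the one before it without overlap. The log2 change from 0h was 1.03 ± 0.22 at 1h (2.04-fold, adjusted p = 0.0144), 3.08 ± 0.22 at 12h (8.43-fold, adjusted p = 2.44e-06) and 4.44 ± 0.22 at 48h (21.7-fold, adjusted p = 4.62e-08). At 1h the call held under 18 of 21 alternative settings, failing without 1h replicate 1 (adjusted p = 0.05001), without 1h replicate 2 (0.0591) and in a fit of only the 6 libraries compared (0.0631). A short unclassified transcript on the opposite strand, AC167363.2, overlaps Cdkn1a exons and reached at most 1.49 TPM as deposited, where Cdkn1a was at 22.1 to 24.5 in the 48h libraries.

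Cdkn1b (ENSMUSG00000003031, chr6:134920401-134925513, plus strand), which encodes p27, a protein controlled largely through its degradation, was called higher only at 48h. Its levels were 2.54, 1.52 and 1.66 at 0h, 3.15, 2.50 and 1.80 at 1h, 2.63, 3.27 and 1.73 at 12h and 6.87, 4.45 and 3.32 at 48h. The first 3 time points overlapped, and the 48h libraries lay above all of them. The 48h difference from 0h was 1.28 ± 0.33 (2.43-fold, adjusted p = 0.00724), and it missed the threshold on TPM as deposited (0.76, adjusted p = 0.0835) and when the 20 most abundant genes were left out of the scaling (1.10, adjusted p = 0.0512). The RNA of p21 and p27 overlapped at 0h. The ratio of Cdkn1a to Cdkn1b within a library, which no scaling touches, was 0.892 ± 0.524 in uninduced cells and 1.33 ± 0.316, 5.57 ± 1.52 and 7.58 ± 1.93 after 1h, 12h and 48h, and the 12h and 48h libraries lay above all 0h and 1h ones.

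Cdkn2c and Cdkn2d, the Ink4 genes among the members, were the 2 of 9 not called higher at 48h, while Cdkn2b, an Ink4 gene outside the set, was (2.03 ± 0.30, adjusted p = 0.000209). Cdkn2a, a further CDK inhibitor gene outside the set, named after its values were seen, was called higher too. It went from 20.9 ± 2.98 to 50.8 ± 12.4 scaled TPM (1.26 ± 0.20, adjusted p = 0.000279). Cdkn2c (ENSMUSG00000028551, chr4:109660876-109667189, minus strand), which encodes p18, measured 1.80, 1.40 and 1.93 at 0h, 2.103, 2.66 and 2.23 at 1h, 0.645, 0.737 and 0.770 at 12h and 0, 0.399 and 0.262 at 48h. All 12h libraries lay under all earlier ones, and all 48h libraries lay under the 12h ones. It was the only 1 of the 9 members called lower at 48h, with a log2 change from 0h of -2.78 ± 0.47 (adjusted p = 0.000548), whose size depends on the added constant since 1 library is listed at 0 (-4.04 to -1.16 over the alternative settings, all past the threshold). The change from 0h to 12h did not pass (-1.14 ± 0.47, adjusted p = 0.0921), while that from 1h to 12h did (-1.57 ± 0.47, adjusted p = 0.0373) and was lost in 10 of 21 alternative settings (adjusted p up to 0.335), among them the omission of any single 1h or 12h library or of 0h replicate 1 or 3 (adjusted p 0.0510 to 0.111). The step from 12h to 48h passed too (-1.64 ± 0.47, adjusted p = 0.0282), and passed under 16 of 21 alternative settings. It was lost without any single 12h library (adjusted p 0.0578 to 0.0792), with a pseudocount of 0.01 (0.0883) and with only the 6 libraries compared (0.128).

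Cdkn2d (ENSMUSG00000096472, chr9:21288410-21291407, minus strand), which encodes p19, was the member without a called difference from 0h at any time. It measured 2.93, 2.13 and 2.01 at 0h, 2.27, 1.81 and 3.23 at 1h, 2.79, 2.44 and 3.92 at 12h and 1.36, 1.45 and 4.26 at 48h. The 48h libraries fell on both sides of the 0h range, with replicate 3 the highest of all 12. The 48h difference was -0.18 with a 95% interval of -1.05 to 0.69 (adjusted p = 0.742), and its sign turned to 0.10 without 48h replicate 1 and to 0.05 without 48h replicate 2. The ratio of Cdkn2d to Cdkn2c within a library was 1.40 ± 0.313 in uninduced cells and 1.07 ± 0.383 and 4.24 ± 0.894 after 1h and 12h, and 3.63 and 16.3 in the pair of 48h libraries where Cdkn2c was above 0.

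Ccng2 (ENSMUSG00000029385, chr5:93267257-93276231, plus strand), the cyclin G2 gene, rose against 0h at 12h and at 48h. Its levels were 1.51, 0.418 and 1.14 at 0h, 1.95, 1.44 and 1.55 at 1h, 2.53, 3.18 and 2.72 at 12h and 5.83, 4.92 and 4.56 at 48h. The 0h and 1h libraries overlapped and the later groups lay apart, each above the one before. The log2 change from 0h was 0.78 ± 0.34 at 1h (adjusted p = 0.193; on TPM as deposited 1.35, adjusted p = 0.0213), 1.52 ± 0.34 at 12h (adjusted p = 0.00655) and 2.36 ± 0.34 at 48h (5.12-fold, adjusted p = 0.000183), and the step from 12h to 48h did not pass (0.84 ± 0.34, adjusted p = 0.109).

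**Figure D2:**
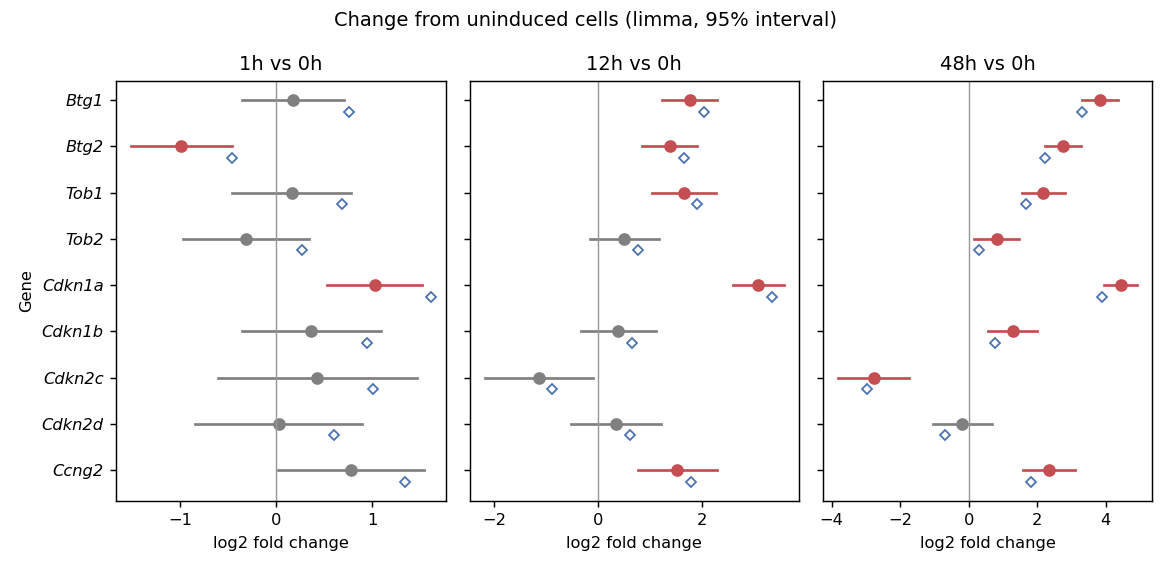
Log2 fold change from 0h (x axis) of each gene (y axis) at 1h, 12h and 48h. Filled points with 95% intervals come from scaled TPM, red where the adjusted p was under 0.05 and grey where not, and open diamonds give the same change on TPM as deposited. At 48h 7 genes are called higher, Cdkn2c lower and Cdkn2d neither.

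In counts, 2 of 9 members were called at 1h against 0h (Cdkn1a higher, Btg2 lower), where 9.86% of all genes tested were called (5.80% higher and 4.06% lower). At 12h it was 5 of 9, all higher (Btg1, Btg2, Tob1, Cdkn1a and Ccng2), against 17.2% of all genes called higher and 13.5% lower. At 48h it was 8 of 9, with 7 higher and Cdkn2c lower, against 27.5% of all genes called higher and 20.4% lower. The median log2 change of the members was 0.18, 1.37 and 2.19 at 1h, 12h and 48h, and that of all genes tested 0.06, 0.11 and 0.19. Between successive induced times, 4 members were called higher from 1h to 12h (Btg1, Btg2, Tob1 and Cdkn1a) and Cdkn2c lower, against 11.4% and 8.84% of all genes, and 3 were called higher from 12h to 48h (Btg1, Btg2 and Cdkn1a) and Cdkn2c lower, against 12.0% and 10.9%. The 3 comparisons with 0h share the 0h libraries.

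The scale matters for the number of calls. On TPM as deposited, the genes tested had median changes from 0h of 0.59, 0.34 and -0.18 in the order of the time points, and higher calls made up 94.5%, 74.0% and 36.9% of all calls, where they made up 58.8%, 56.1% and 57.4% on scaled TPM. For the steps from 1h to 12h and from 12h to 48h that share was 31.7% and 11.4% as deposited and 56.4% and 52.4% scaled. On the deposited scale 5 members were higher and 1 lower at 48h, against 15.9% and 27.2% of all genes. The late step changed as well, since from 12h to 48h only Btg1 was called higher there (1.27, adjusted p = 0.00601), Btg2 (0.58, adjusted p = 0.0999) and Cdkn1a (0.56, adjusted p = 0.113) were not, and Cdkn2d was called lower (-1.29, adjusted p = 0.0404), where 4.10% of all genes were called higher and 31.7% lower.

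Since TPM are per length, levels can be set beside each other. At 0h the order was Btg1, Tob2, Cdkn2d, Cdkn1b, Cdkn2c, Cdkn1a, Btg2, Ccng2 and Tob1, from 2.64 to 0.548 scaled TPM, and every neighbouring pair overlapped. At 1h Cdkn1a led at 3.17, and the only neighbours apart were Ccng2 and Tob1. By 12h the order had opened at its ends, with Cdkn1a (13.4) above Btg1 (9.06), Btg1 above Tob2 (3.66), and Cdkn2c (0.717) last and apart from Tob1, while the neighbours from Tob2 down to Tob1 overlapped. At 48h Btg1 (38.8 ± 7.11) and Cdkn1a (34.7 ± 3.69) overlapped at the top, followed without overlap by Btg2 (9.30 ± 1.85) and then Ccng2 (5.11 ± 0.655). Tob2 and Cdkn1b came next and overlapped with Ccng2 and each other, then Tob1 and Cdkn2d, and Cdkn2c was last.

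The wider cell cycle machinery gave the setting in which these genes moved. All 23 genes on a list of S, G2 and M phase genes were lower at 48h, and 17 of them already at 12h. Their median log2 change at 48h was -5.20. The mitotic kinase gene Cdk1 fell from 21.4 ± 4.71 to 0.147 ± 0.255 scaled TPM (log2 change -6.91 ± 0.52, adjusted p = 9.78e-07) and the cyclin gene Ccna2 from 14.3 ± 0.712 to 0.0371 ± 0.0341 (-6.75 ± 0.20, adjusted p = 9.95e-10). Of 8 tested G1 cyclin and CDK genes 7 were lower, among them Cdk4, the kinase that Ink4 proteins bind (-2.40 ± 0.20, adjusted p = 2.19e-06), and Ccne2 (-4.39 ± 0.34, adjusted p = 1.29e-06). Ccnd1, which encodes cyclin D1, was the exception at 18.6 ± 3.96 at 0h and 37.0 ± 0.833 at 48h (1.01 ± 0.21, adjusted p = 0.00185). In the RB and E2F family 10 of 13 were lower, led by E2f2 (-3.89 ± 0.25) and E2f7 (-2.20 ± 0.51), and Rb1 and Rbl2, encoding a pair of pocket proteins that hold E2F in check, were higher (1.73 ± 0.33 and 1.21 ± 0.33), with 1 higher and 10 lower on TPM as deposited. These counts at 48h stand against 27.5% of all genes higher and 20.4% lower.

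**Figure D3:**
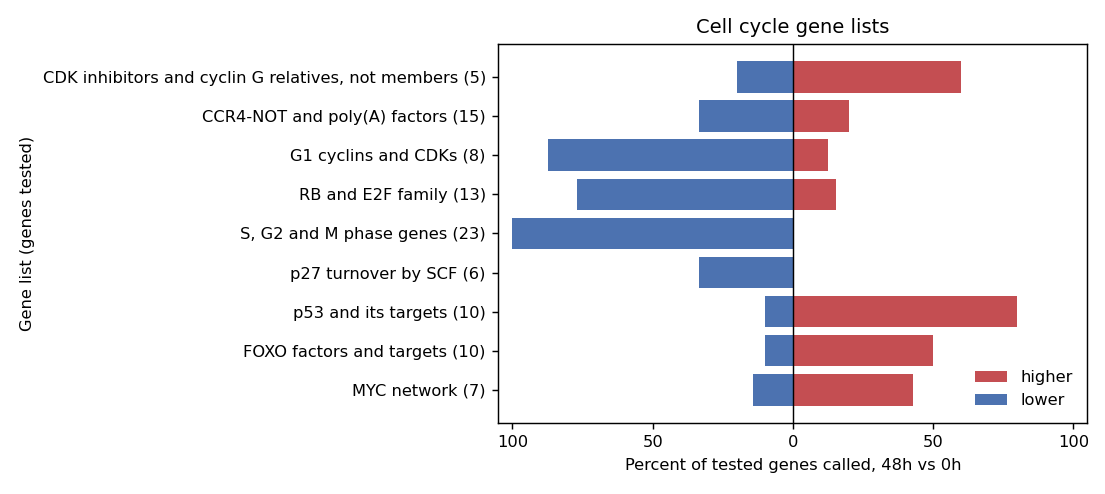
Share of the tested genes of each list (y axis, number tested in brackets) called at 48h against 0h (x axis, percent), with lower calls drawn to the left in blue and higher calls to the right in red. All 23 S, G2 and M phase genes are lower, and 8 of 10 genes of the p53 list are higher.

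Genes that stand before or beside the members were mixed. The counts here and for the relatives are to be read against 27.5% of all genes higher and 20.4% lower at 48h (15.9% and 27.2% on TPM as deposited). On a list of p53 and its targets 8 of 10 tested genes were higher at 48h (4 on TPM as deposited), including the stress gene Trp53inp1 (3.57 ± 0.34, adjusted p = 5.82e-06) and the apoptosis gene Pmaip1 (3.11 ± 0.35, adjusted p = 2.78e-05), while Trp53 itself, the gene of p53, was lower (18.1 ± 0.945 to 6.56 ± 0.378 scaled TPM, -1.45 ± 0.12, adjusted p = 2.06e-06). Of 10 FOXO factors and targets 5 were higher, including Txnip (3.90 ± 0.19), and the factor genes went both ways. Foxo1 was lower (-1.14 ± 0.18, adjusted p = 0.000318), Foxo3 was higher (2.92 ± 0.410 to 8.75 ± 1.21 scaled TPM, 1.55 ± 0.15, adjusted p = 9.27e-06) and Foxo4 was not called (0.02 ± 0.28, adjusted p = 0.986), the last 2 named after their values were seen. In the MYC network Myc was lower (-1.26 ± 0.14, adjusted p = 2.47e-05) and its antagonists Mxd1 (4.01 ± 0.21) and Mxd4 (3.46 ± 0.25) were among 3 of 7 higher (2 higher and 2 lower as deposited). Of the factors that degrade p27, Skp2 (-2.34 ± 0.29) and Cks1b (-4.69 ± 0.27) were the 2 of 6 that were lower, where 3 of 6 were on TPM as deposited. Among 15 CCR4-NOT and poly(A) factors, the partners of BTG and TOB proteins, 3 were higher, near the share of all genes, and 5 lower at 48h (2 and 10 as deposited), from Cnot6l, a deadenylase (7.80 ± 2.27 to 37.4 ± 8.54 scaled TPM), to Pabpc4 (18.2 ± 0.831 to 0.759 ± 0.119).

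The nearest relatives of the members had their own courses. Of 5 tested CDK inhibitor and cyclin G relatives 3 were higher at 48h, among them Cdkn2b and Ccng1 (1.98 ± 0.22, adjusted p = 2.03e-05), and Cdkn3, a phosphatase gene of dividing cells, was lower (-2.59 ± 0.53, adjusted p = 0.00195), with 3 higher and 2 lower on TPM as deposited. Btg3, the 1 other family member that could be tested, was singled out after its values were seen. It went from 1.23 ± 0.224 at 0h to 3.90 ± 1.83 at 1h (1.49 ± 0.37, adjusted p = 0.0267) and back to 1.36 ± 0.405 at 48h, while Btg4 was at 0.

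The genes most like the members over the 12 libraries, among 9213 with a mean of at least 1 scaled TPM, are given as a description. For Btg1 they were Ctsb, Adipor1 and Spp1 (Pearson r 0.988 to 0.990), for Btg2 Alox5ap, Cd81 and Tmem140 (0.986 to 0.991) and for Cdkn1a Ifi208, Rbpj-ps3 and Cd44 (0.990 to 0.991). The likeness was lowest for Cdkn2d, at 0.858 to 0.904 for Rab1b, Sirt6 and Gm24950. For 4 other members the genes were Chp1, Csf2rb2 and Mgrn1 (Tob1), Dok3, Slc12a9 and Zfp385a (Tob2), Ttc17, Gm47933 and Herpud2 (Cdkn1b) and Dzip1, Tmcc1 and Gm43197 (Ccng2), at 0.938 to 0.975. Between members the highest r was 0.938 (Btg1 with Tob1) and the lowest -0.888 (Btg1 with Cdkn2c). The libraries share their time points, so that any 2 genes with a monotonic course score high.

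Each of the 9 genes had 1 promoter fragment with a gene start in it that was listed as a captured fragment (bait), and all 9 had listed contacts at every time point. A contact is a pair of HindIII fragments that passed a CHiCAGO score of 5, a measure of how far the reads exceed the background at that distance. The lists merge 2 replicates, so that contact counts have no error and no test, and a pair absent from a list may lie just under the threshold. In the order of the time points the 9 fragments held 137, 110, 120 and 167 contacts, all on the same chromosome, where the median over 18175 baits was 4 per bait at each time.

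Btg1 gained more contacts from 0h to 48h than the 9 fragments did together. Its fragment (chr10:96616247-96622273) had 15 contacts in uninduced cells and 13, 21 and 59 after 1h, 12h and 48h, a ratio of 3.93 between the last and the first. At 0h 80.0% of all baits had fewer contacts than Btg1, and at 48h 98.9% had. Only 28 of 18175 baits gained more contacts from 0h to 48h, and 0.165% gained at least as many. Among the 5420 baits with at least 10 contacts at 0h, 4.41% had at least 2 times as many at 48h and 19.9% had 0.5 times as many or fewer. Of the 59 contacts at 48h, 14 were the same fragment pairs as at 0h, and 32 were listed at no other time. Many partner fragments adjoin each other, however, and 30 of the 59 lay within 10 kb of a 0h contact. With directly neighbouring fragments joined, the 59 formed 28 runs (the longest of 7 fragments) and the 15 at 0h formed 9.

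The Btg1 contacts lay mostly upstream but rose in number on both sides. At 0h 9 lay upstream of the gene and 6 downstream. At 48h 48 of the 59 lay upstream of the gene, within a stretch of 354 kb (chr10:96117379-96471554), and 11 lay downstream, the nearest of all at 128 kb and the farthest at 723 kb. Fragments in contact covered 42.2, 38.4, 69.1 and 156 kb of that stretch in the order of the time points. No partner fragment held the start of a protein-coding gene. The stretch overlaps 8 annotated genes, of which Gm5426 alone is protein-coding, and the highest level of any of them in a 48h library was 0.165 scaled TPM. The miRNA gene Gm22913 was at up to 1.44 scaled TPM at 12h and at 0 in all 0h, 1h and 48h libraries. The 0h scores of the 15 starting contacts ran from 5.65 to 12.1, with 3 of 15 at 10 or more.

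**Figure D4:**
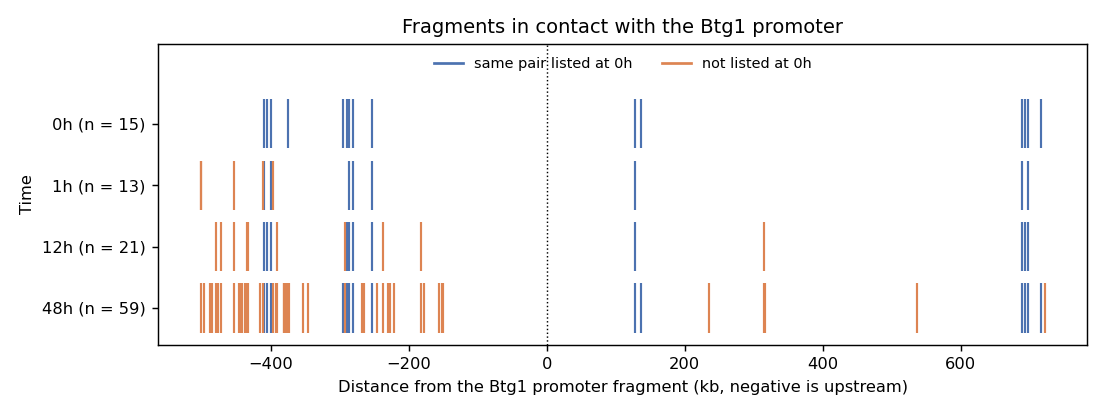
Contacts of the Btg1 promoter fragment at each time point (rows), each drawn as a tick at its distance in kb (x axis, upstream negative), blue where the same pair was listed at 0h and orange where not. In the 48h row 48 of the 59 ticks lie to the left of the gene, between the 150 kb and 501 kb marks.

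The other members did not show such a gain, including Cdkn1a with its 21.7-fold higher RNA at 48h. Cdkn1a had 14, 12, 15 and 11 contacts at 0h, 1h, 12h and 48h, of which 6 of 22 different pairs were listed at all 4 times. A pair kept throughout reached the start of Cpne5, a copine gene, 73.6 kb downstream, and the start of Pim1, a kinase gene that was itself higher at 48h (2.16 log2, adjusted p = 6.44e-07), 403 kb downstream, was listed at 0h, 1h and 48h. Btg2 had 3, 1, 4 and 4 contacts, all upstream of it, and Tob1 3, 4, 4 and 4, also all upstream. Tob2 had 6, 3, 4 and 4, from a fragment that also holds the start of Gm49476. Cdkn1b had 6, 7, 3 and 5, most of them with other promoter fragments, and 3 of its 8 different pairs were listed at all times, reaching the starts of Gpr19, Dusp16 and Ddx47. Dusp16, a MAP kinase phosphatase gene 124 kb upstream, was higher at 48h (2.49 log2, adjusted p = 0.000105), Gpr19 (-1.49, adjusted p = 0.0390) and Ddx47 (-0.56, adjusted p = 0.0173) were lower. Gpr19 was near the floor, at a mean of 0.364 scaled TPM at 0h and 0.103 at 48h.

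Cdkn2c had many contacts throughout while its RNA fell, with 37, 23, 27 and 35 at the 4 times, more than at least 89.0% of all baits each time. Upstream of the gene lay 9 of 37 at 0h, 3 of 23 at 1h, 2 of 27 at 12h and 2 of 35 at 48h. Several of the 9 had 0h scores near the threshold of 5 (down to 5.02). The highest-scoring of them, with the start of Spata6 (27.5), was listed at 48h too. The contact with the start of Faf1, 12.1 kb upstream, was listed at 0h, 1h and 12h and not at 48h, and that with the start of Rnf11, 182 kb downstream, at all 4. A second annotated start of Cdkn2c lies on a fragment that is not among the listed baits, and whether it was captured cannot be told from the lists. Cdkn2d had 5, 9, 8 and 3 contacts, from a fragment that also holds the start of Kri1, so that these cannot be assigned to either gene.

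Ccng2 had 48, 38, 34 and 42 contacts and kept more pairs than any other member, with 24 of 58 listed at all 4 times. All but 1, at 0h, lay upstream. Among them were 3 fragments with starts of Ccni, the gene of the related cyclin I, 61.8, 64.7 and 79.3 kb away, listed at every time with scores of 88.6, 27.8 and 12.3 at 0h. The fragment 61.8 kb away also holds a start of 2010109A12Rik, so that its contact cannot be assigned to Ccni alone. Ccni RNA was 13.2 ± 2.15 scaled TPM at 0h and its 48h difference of -0.07 did not pass (adjusted p = 0.761), whereas Ccng2 rose 5.12-fold.

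**Figure D5:**
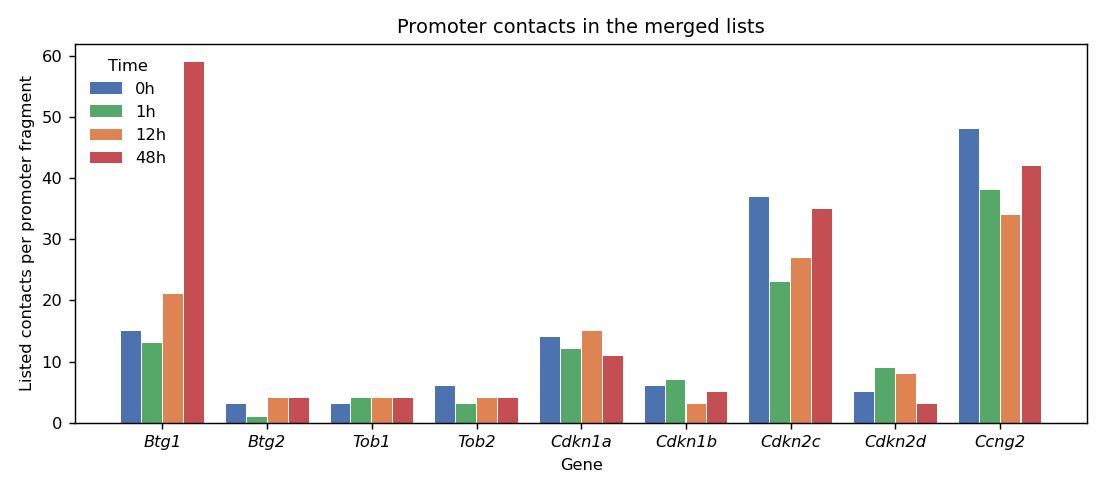
Number of listed contacts of the promoter fragment of each gene (y axis, bars from 0) at 0h, 1h, 12h and 48h (colours), 1 merged list per time point and hence no error bars. Btg1 goes from 15 to 59, while Ccng2 and Cdkn2c hold 23 or more at every time.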

How the data were processed

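RNA-seq and PCHi-C of C10 cells were used. The authors trimmed reads with Trim Galore 0.6.2, mapped them to mm10 with HISAT2 2.1.0, merged technical replicates and deposited TPM (transcripts scaled to a fixed total) from RSEM, with no strand stated. The deposited PCHi-C lists hold fragment pairs called by CHiCAGO after mapping with HiCUP, 2 replicates merged. Per the methods the 0h list carries the CHiCAGO score, and the whole numbers in the other deposited lists, whose unit is unnamed (another value than the score), were not used.

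TPM were divided by size factors (median of ratios over 8534 genes above 0 in all 12 libraries with a mean TPM of at least 1). Genes with a mean of at least 0.1 scaled TPM were tested on log2(scaled TPM + 0.1) with limma 3.58.1 (R 4.3.3), all 4 time points in 1 model, 5 contrasts, Benjamini-Hochberg adjustment over all 16256 genes, threshold 0.05. P-values measure the spread between libraries of 1 cell line. A contact was counted once per fragment pair, both ends considered. Promoter letters came from RefSeq.

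The members and gene lists were chosen with earlier results of these data known. The text names all members and, from each list, up to 2 genes with the largest called rise and fall at 48h, except where stated. Some genes that this rule selects, and the genes most like Cdkn2c, are not reported here. Alternatives were other scalings, pseudocounts and filters, no variance trend, only the libraries compared, a replicate block and the omission of each library.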

Additional observations from a re-analysis of the deposited data

How the results depend on the processing

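With 21 alternatives for each of 45 member changes, 873 values stayed on the same side of the threshold with the same sign, 39 lost and 17 gained a call, and 16 changed sign. None of the 16 had been called, and the cause was not tested. The number of members called at 1h was 1 with a pseudocount of 1, 0 with only the 6 libraries compared, and 1 and 0 when a log2 change beyond 1 or 2 was also asked for, which asks for more by construction. With a log2 change beyond 2 it was 1 at 12h against 0h, 2 from 1h to 12h and 1 from 12h to 48h. Leaving out single libraries gave 0 to 2 members at 1h, 5 to 6 at 12h, 7 to 8 at 48h, 4 to 6 from 1h to 12h and 3 to 6 from 12h to 48h. Of 137 contacts at 0h, 35 had a score of at least 10.

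Signs that turned on TPM as deposited were those of Tob2 at 1h (0.26), Cdkn1b from 1h to 12h (-0.29), and Tob1 (-0.23) and Tob2 (-0.46) from 12h to 48h. Cdkn1b from 1h to 12h was -0.0233 when the 20 most abundant genes were left out of the scaling. Without single libraries its change was -0.18 to 0.27, that of Btg1 at 1h -0.0113 to 0.42, Tob1 at 1h -0.13 to 0.35, Cdkn2d -0.19 to 0.21 at 1h and -0.69 to 0.10 at 48h, and Tob2 from 12h to 48h -0.0282 to 0.58. Leaving out 1 library also added calls, namely Cdkn2c at 12h against 0h without 48h replicate 1 (adjusted p = 0.00244), Tob2 from 1h to 12h without 48h replicate 3 (0.0214), Ccng2 from 1h to 12h (0.0210) and from 12h to 48h (0.0102) without 0h replicate 2, and Cdkn1b (0.0352) and Cdkn2d (0.0223) from 12h to 48h without 48h replicate 3. At 1h no member was called without 1h replicate 1 or 1h replicate 2.

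Replicate numbers are shared between time points but pair nothing the labels name. In how they differed from the other libraries of their time point, same-numbered libraries correlated over 0.1 in 12 of 18 pairs (-0.04 to 0.43). Of the 12 libraries, 7 correlated best with their own number. These values are not correlations of whole expression profiles and do not measure library quality. The pairs ran from 0.13 to 0.43 for replicate 3, from 0.06 to 0.19 for replicate 1 and from -0.04 to 0.11 for replicate 2. The part of this in the spread of Tob2 and Cdkn2d was not tested. With the replicate number as a block, the members called were 2, 5 and 8 at 1h, 12h and 48h, 6 from 1h to 12h (Tob2 added, adjusted p = 0.0142) and 5 from 12h to 48h (Cdkn1b added, adjusted p = 0.0161). TPM keep no depth, which limits what can be said of genes near 0 such as Cdkn2c at 48h.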
